A study of Caenorhabditis elegans with 36 samples.

Results

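The 10 genes described here encode the nuclear RNAi factors *nrde-1* (C14B1.6), *nrde-2* (T01E8.5) and *nrde-4* (F45E4.10) and chromatin regulators of the *C. elegans* germline, namely *set-25* (Y43F4B.3), *set-32* (C41G7.4), *met-2* (R05D3.11), *hpl-2* (K01G5.2), *set-2* (C26E6.9), *mes-2* (R06A4.7) and *mes-4* (Y2H9A.1). They were chosen by name, with no threshold on measured values but with earlier results of these data known. They are 10 of the 45904 gene names in the count files. All 10 passed the filter on low counts in both assays. Day 1 adults of the wild-type strain N2 and of *mut-16(pk710)* mutants, grown from synchronized first-stage larvae on enriched peptone, were harvested after about 68 h at 20°C or about 48 h at 25°C. mRNA-seq and small RNA-seq each had 3 libraries for wild-type at 20°C, wild-type at 25°C, *mut-16* at 20°C and *mut-16* at 25°C, described by the methods as biological replicates. Temperature and hours of growth changed together, so their parts in a difference cannot be told apart, and each library was made from a pool of whole animals with soma and germline together.

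In nuclear RNAi, an Argonaute protein carries a small RNA into the nucleus, where NRDE factors associate with the nascent transcript and with chromatin and histone H3 becomes methylated at lysine 9. In the *C. elegans* germline, this methylation, the methylation of lysines 4, 27 and 36, and the inheritance of small RNAs help to keep gene expression programs stable from one generation to the next. MUT-16 is the scaffold of the Mutator foci, perinuclear sites where secondary siRNAs (22G-RNAs) are amplified from target transcripts. The comparisons ask whether mRNA for this machinery, or small RNAs from its genes, differed when MUT-16 was lost, when animals were grown at 25°C, or under both.

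Levels below are normalised CPM, the counts divided by a library size that the TMM method has set to a common scale within an assay and scaled to a fixed total. mRNA-seq libraries held 15432009 to 34195602 counts and small RNA-seq libraries 4760502 to 19060841, and the 10 genes held 343 to 5825 mRNA counts and 549 to 24320 small RNA counts in each library. As a check of the genotype labels, the *mut-16* mRNA was lower in the mutant at both temperatures, with 124 ± 3.02 normalised CPM (SD, n = 3) in wild-type and 57.2 ± 13.7 in the mutant at 20°C, and with 115 ± 14.1 and 38.8 ± 4.89 at 25°C. Its log2 fold change was -1.12 at 20°C and -1.57 at 25°C (edgeR's quasi-likelihood test, adjusted p = 2.33e-05 and 4.69e-07). Marker lists moved between the groups. The summed level of 18 germline markers ran from 5603 to 6662 for wild-type and from 6335 to 7489 for *mut-16* at 20°C, and from 6275 to 6859 for wild-type and from 3915 to 4227 for *mut-16* at 25°C, and none of the 18 was at 0. The 13 oocyte markers gave 10030 to 12050, 11850 to 12080, 10640 to 11090 and 6466 to 7287 in the same order, also with none at 0. The 14 sperm markers summed to at most 17.0 in wild-type at 20°C, where 1 of them was at 0, and to 40.1 to 49.4 at 25°C. In *mut-16* they summed to 97.2 to 113.6 at 20°C and to at least 131 at 25°C. The 10 intestine markers summed to 14680 to 24590 in *mut-16* at 25°C and to at least 25080 in all libraries of the other groups. Gene by gene, the direction was mixed. Against wild-type at 25°C, 5 of these 10 were higher and 2 lower in *mut-16* at 25°C (median log2 fold change 0.37). Against *mut-16* at 20°C, 4 were higher and 5 lower (median -0.27, edgeR's quasi-likelihood test). Muscle, neuron and adult cuticle markers had their highest summed levels in *mut-16* at 25°C, up to 3860, 288 and 1731. The part of these shifts in the results below was not tested beyond the germline comparison given there. In such bulk samples, fewer cells of a type and less RNA per cell cannot be told apart.

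Per kilobase of exon, *hpl-2*, an HP1-like protein that binds methylated lysine 9, had the highest mRNA level of the 10 genes in every group. Its level was 73.8 ± 9.36 RPM per kilobase (reads scaled by the library total) in wild-type at 20°C (SD, n = 3). *nrde-4* was second in every group, at 56.6 ± 7.32 in wild-type at 20°C. Between them and the lowest genes lay *met-2* (40.2 ± 3.92), *nrde-2* (37.9 ± 5.84), *mes-4* (37.1 ± 2.63) and *mes-2* (34.4 ± 2.15), whose ranges over libraries overlapped from each to the next. *nrde-1* (27.9 ± 3.34) and *set-2* (18.0 ± 1.01) followed, each below all libraries of the gene before it. *set-25* (14.9 ± 0.707) and *set-32* (14.4 ± 1.97), which encode methyltransferases linked to lysine 9 methylation, were lowest and overlapped. In the other 3 groups *nrde-2* took the third place, *set-25* the last, and *met-2* was sixth in *mut-16* at 25°C.

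In mRNA-seq, none of the 10 genes was called different between *mut-16* and wild-type at 20°C, while 37.1% of the 14623 genes tested were (edgeR's quasi-likelihood test, p adjusted by Benjamini and Hochberg under 0.05). Their log2 fold changes ran from -0.13 for *set-25* to 0.15 for *set-2*, and the 95% intervals reached from -0.55 to 0.49. At an unadjusted p under 0.05, 0 of the 10 passed, and DESeq2 also called 0. The temperature comparison in wild-type likewise gave 0 calls among the 10 genes, against 32.4% of all genes tested, with 2 of the 10 at an unadjusted p under 0.05. These were *nrde-2*, with a log2 fold change of 0.33 (SE 0.15) and an edgeR adjusted p of 0.111, and *set-25*, with -0.53 (SE 0.19) and 0.0526.

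*set-25* was the least stable of these values. Its levels were 41.3, 41.9 and 45.6 normalised CPM in wild-type at 20°C and 40.2, 28.7 and 20.5 in wild-type at 25°C. All 3 libraries at 25°C were below those at 20°C, as for 15.9% of all genes, the first only just and the third far below (SD 9.92, against 2.30 at 20°C). *set-25* was called lower under 6 alternative settings, among them DESeq2 (log2 fold change -0.61, adjusted p = 0.00715) and edgeR's quasi-likelihood test scaled by library totals (-0.52, adjusted p = 0.0427), and without wild-type 25°C replicate 1 (-0.80, adjusted p = 0.00163). It also passed without *mut-16* 20°C replicate 1, 2 or 3, with edgeR adjusted p-values of 0.0465, 0.047 and 0.0463. *nrde-2* was called higher at 25°C without wild-type 20°C replicate 2 (0.47, adjusted p = 0.0366 with edgeR) and without *mut-16* 20°C replicate 3 (0.29, adjusted p = 0.0235), and *nrde-1* was called higher without wild-type 20°C replicate 2 (0.34, adjusted p = 0.0392).

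**Figure D1:**
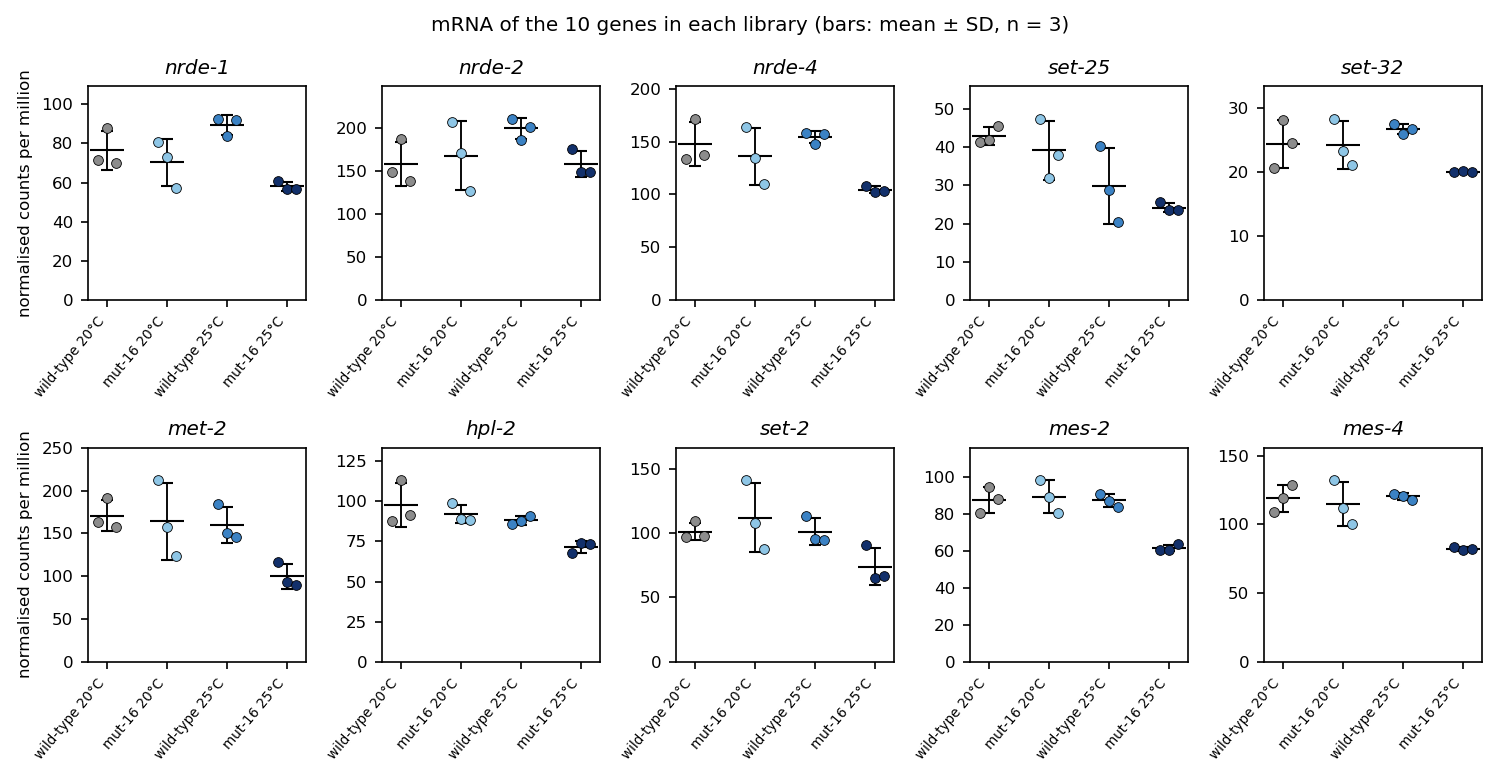
mRNA of the 10 genes in normalised CPM (vertical axes, each from 0) in the 12 mRNA-seq libraries, grouped by genotype and temperature. Points are libraries, and the bars are the mean and SD of 3. The *mut-16* libraries at 25°C lie lowest for *mes-2* (60.3 to 63.5) and *mes-4* (81.1 to 83.8), below all libraries of the other groups.

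With both conditions together, most of the 10 genes had less mRNA. Against *mut-16* at 20°C, 8 of the 10 genes were lower in *mut-16* at 25°C, where 32.3% of all genes tested were lower (edgeR's quasi-likelihood test, adjusted p under 0.05), and against wild-type at 25°C, 8 of 10 were lower, where 32.6% of all genes were. The median log2 fold change of the 10 genes was -0.43 in the first comparison, where that of all genes was 0.15, and -0.48 in the second, where that of all genes was 0.16. In 7 of the 10, every library of *mut-16* at 25°C was below every one of *mut-16* at 20°C, as for 32.4% of all genes, and in 9 of the 10 below every one of wild-type at 25°C, as for 35.8% of all genes. Both comparisons share the *mut-16* libraries at 25°C.

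Among the nuclear RNAi factors, *nrde-1*, whose protein associates with target pre-mRNA and chromatin, had 71.3, 88.0 and 70.1 normalised CPM in wild-type at 20°C, 92.6, 83.7 and 92.2 in wild-type at 25°C, 80.8, 72.9 and 57.2 in the mutant at 20°C and 60.8, 56.8 and 56.7 in the mutant at 25°C. The *mut-16* libraries at 25°C were thus below all wild-type libraries but overlapped with *mut-16* at 20°C. Its log2 fold change was -0.62 (SE 0.12, edgeR adjusted p = 0.000229) between the genotypes at 25°C and -0.27 (SE 0.12, edgeR adjusted p = 0.0452) between the temperatures in *mut-16*. The second call was lost without *mut-16* 20°C replicate 1 or 2 (edgeR adjusted p = 0.185 and 0.0988) or *mut-16* 25°C replicate 2 or 3 (0.111 and 0.11). *nrde-4*, which acts upstream of *nrde-1* recruitment, had 164, 134 and 110 in the mutant at 20°C, 108.5, 102 and 103 in the mutant at 25°C and 158, 148 and 158 in wild-type at 25°C. All of its *mut-16* libraries at 25°C were below those of both other groups. The log2 fold changes were -0.56 (SE 0.12, edgeR adjusted p = 0.000841) between the genotypes at 25°C and -0.38 (SE 0.12, adjusted p = 0.0122) between the temperatures in *mut-16*, where the call was lost without *mut-16* 20°C replicate 1 (-0.24, adjusted p = 0.0677). For *nrde-2*, whose protein binds the nuclear Argonautes, neither comparison passed, with 175.5, 149 and 149 in *mut-16* at 25°C, 210, 186 and 201 in wild-type at 25°C and 206, 170 and 126 in *mut-16* at 20°C. The first group lay below wild-type at 25°C and overlapped with *mut-16* at 20°C. Its log2 fold change between the genotypes at 25°C was -0.34 (SE 0.15, edgeR adjusted p = 0.0597), and leaving out wild-type 20°C replicate 1 or 2, *mut-16* 20°C replicate 1 or 3 or *mut-16* 25°C replicate 1 brought it past the threshold (edgeR adjusted p = 0.0373, 0.0189, 0.0198, 0.00989 and 0.0344). DESeq2 also called it lower (-0.37, adjusted p = 0.0299).

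Of the lysine 9 group, *met-2*, a SETDB1-like methyltransferase that adds the first methyl groups, had 163, 191 and 157 normalised CPM in wild-type at 20°C, 184, 150 and 145 in wild-type at 25°C, 212, 157 and 123 in the mutant at 20°C and 116, 93.4 and 89.6 in the mutant at 25°C. The last group was below all 9 other libraries. Its log2 fold changes were the most negative of the 10 genes, with -0.72 (SE 0.17, edgeR adjusted p = 0.00243) between the temperatures in *mut-16* and -0.68 (SE 0.17, edgeR adjusted p = 0.00332) between the genotypes at 25°C. *set-25*, the methyltransferase that completes trimethylation, had 47.4, 32.0 and 38.1 in *mut-16* at 20°C and 25.6, 23.4 and 23.6 in *mut-16* at 25°C, without overlap, and was lower by temperature in *mut-16* (log2 fold change -0.70, SE 0.20, edgeR adjusted p = 0.00651). Between the genotypes at 25°C it did not pass (-0.30, SE 0.20, edgeR adjusted p = 0.184) and the groups overlapped. Without wild-type 25°C replicate 3, the low library named above, it passed (-0.52, edgeR adjusted p = 0.00901). *set-32*, which acts with *set-25* in heritable silencing, had 20.0, 20.1 and 20.0 in *mut-16* at 25°C, below the 27.4, 26.0 and 26.6 of wild-type at 25°C (log2 fold change -0.41, SE 0.12, edgeR adjusted p = 0.00513). Against *mut-16* at 20°C, with 28.3, 23.2 and 21.1 and without overlap, it missed the threshold (-0.27, SE 0.12, edgeR adjusted p = 0.0507). It passed without wild-type 20°C replicate 1 or 2, *mut-16* 20°C replicate 3 or wild-type 25°C replicate 1 (edgeR adjusted p = 0.0159, 0.0154, 0.0424 and 0.0346). *hpl-2* had 67.6, 74.0 and 73.1 in *mut-16* at 25°C, against 99.0, 89.2 and 88.6 in *mut-16* at 20°C and 85.6, 88.0 and 91.0 in wild-type at 25°C, without overlap. Its changes were smaller, at -0.36 (SE 0.09, edgeR adjusted p = 0.00302) and -0.30 (SE 0.09, edgeR adjusted p = 0.01).

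*set-2*, the catalytic subunit of the complex that methylates lysine 4, had 141, 108 and 87.5 normalised CPM in the mutant at 20°C, 90.4, 64.8 and 66.2 in the mutant at 25°C and 113, 95.1 and 94.8 in wild-type at 25°C. The highest library of *mut-16* at 25°C exceeded the lowest at 20°C and lay below all wild-type libraries at 25°C. Its log2 fold changes were -0.60 (SE 0.16, edgeR adjusted p = 0.0043) by temperature in *mut-16* and -0.45 (SE 0.16, edgeR adjusted p = 0.0207) by genotype at 25°C, the second lost without *mut-16* 25°C replicate 2 or 3 (edgeR adjusted p = 0.0818 and 0.0785). *mes-2*, the methyltransferase for lysine 27 in the *C. elegans* Polycomb complex, had 80.4, 94.4 and 87.9 in wild-type at 20°C, 90.8, 87.0 and 83.7 in wild-type at 25°C, 98.1, 89.2 and 80.2 in the mutant at 20°C and 60.5, 60.3 and 63.5 in the mutant at 25°C. The gap between the last group and the lowest of the others was larger than the range within it. Its log2 fold changes were -0.54 (SE 0.09, edgeR adjusted p = 8.43e-05) and -0.50 (SE 0.09, edgeR adjusted p = 0.00013). *mes-4*, a lysine 36 methyltransferase that marks germline-expressed genes, had 132, 112 and 100 in *mut-16* at 20°C, 122, 121 and 118 in wild-type at 25°C and 83.8, 81.1 and 81.8 in *mut-16* at 25°C, again without overlap, for log2 fold changes of -0.48 (SE 0.10, edgeR adjusted p = 0.000419) and -0.55 (SE 0.10, edgeR adjusted p = 0.00013).

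**Figure D2:**
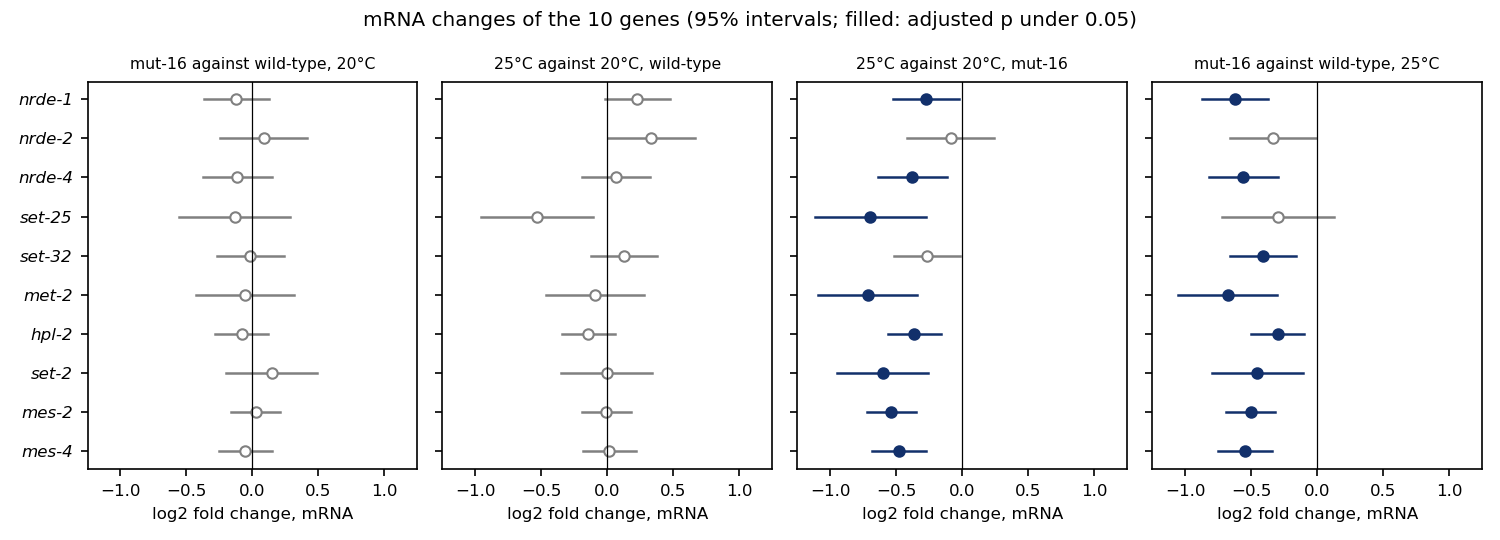
log2 fold changes of mRNA (horizontal axes) with 95% intervals for the 10 genes in 4 comparisons, filled where the adjusted p from edgeR's quasi-likelihood test was under 0.05. All points of the left 2 panels are open, and 8 of 10 are filled on the negative side in each of the right 2.

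The difference between the heat responses, tested directly as an interaction, was negative for all 10 genes (median -0.47, all genes -0.10). It passed for 3 of 10, where 21.4% of all genes had a lower response in *mut-16* (edgeR's quasi-likelihood test, adjusted p under 0.05). The 3 were *mes-2* (-0.53, SE 0.12, edgeR adjusted p = 0.00613), *mes-4* (-0.50, SE 0.14, adjusted p = 0.0134) and *nrde-1* (-0.50, SE 0.16, adjusted p = 0.0311). For the other genes the adjusted p from the same edgeR test was between 0.0589 for *set-2* and 0.673 for *set-25*, and 7 of the 10 had an unadjusted p under 0.05. The count depended on single libraries. It was 9 without wild-type 20°C replicate 2, 7 without *mut-16* 20°C replicate 3 and 5 without *mut-16* 25°C replicate 1, and *nrde-1* was lost in 7 of the 12 fits that left out 1 library, with edgeR adjusted p up to 0.07. *mut-16* 20°C replicate 3 had the lowest level of its group for 9 of the 10 genes, all but *set-25*. It and wild-type 20°C replicate 3 are the libraries whose titles lack the letters RE, which the other 10 mRNA-seq titles carry and the sources used here do not explain. Without these 2 libraries, a setting added after seeing the data, the interaction passed for 8 of the 10.

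The scaling bore on these mRNA results. TMM factors were 1.11 to 1.15 in *mut-16* at 25°C and 0.90 to 0.93 in *mut-16* at 20°C. When libraries were scaled by their totals, the all-gene median went from 0.15 to 0.46 between the temperatures in *mut-16*, from 0.16 to 0.37 between the genotypes at 25°C and from -0.10 to 0.19 in the interaction (log2 fold changes). The share of higher among all calls then moved from 55.4% to 80.9%, from 55.8% to 73.0% and from 31.2% to 78.0%. Of the 10 genes, *met-2* (-0.40, edgeR adjusted p = 0.038) and *mes-2* (-0.22, adjusted p = 0.0276) stayed lower by temperature in *mut-16*, which makes 2 calls in place of 8, with 12.4% of all genes lower, and the sign of *nrde-1* turned (0.04). Between the genotypes at 25°C, 5 of 10 stayed lower, namely *nrde-1*, *nrde-4*, *met-2*, *mes-2* and *mes-4*, with 18.3% of all genes lower, and the interaction passed for 0 of 10. With TMM, the median of the 10 genes minus that of all genes was -0.576 by temperature in *mut-16* and -0.64 by genotype at 25°C, and all 10 genes were below the median of all genes in both comparisons. A change of scaling shifts all genes by about the same amount, so this difference carries no information on the choice. The filter on low counts mattered too. Where each library had to hold at least 10 counts, 11009 genes were tested, and the median of the 10 genes went from -0.43 to -0.22 by temperature in *mut-16* and from -0.48 to -0.30 by genotype at 25°C.

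Germline markers were lower as well. All 18 were lower in *mut-16* at 25°C than in wild-type at 25°C (median log2 fold change -0.63) and 16 of 18 were lower than in *mut-16* at 20°C (median -0.52), by edgeR's quasi-likelihood test. As a ratio to the geometric mean of these 18 genes in the same library, *mes-2* was at -0.95 on the log2 scale in *mut-16* at 25°C, against -1.065 in wild-type at 25°C and -0.93 in the mutant at 20°C. Over the 10 genes, the ratio in *mut-16* at 25°C minus that in wild-type at 25°C ran from -0.06 for *met-2* to 0.375 for *set-25* (median 0.14) and was below 0 for *met-2* alone. Against *mut-16* at 20°C it ran from -0.17 for *met-2* to 0.46 for *nrde-2* (median 0.10), below 0 for *set-25*, *met-2*, *set-2* and *mes-2*. With the germline markers as the scaling, added after seeing the data, 0 of the 10 genes were called lower in either comparison, *hpl-2* and *nrde-2* were called higher by genotype at 25°C, and *nrde-1*, *nrde-2* and *set-32* were called higher by temperature in *mut-16*. With this scaling, 73.6% of all genes were higher and 1.59% lower by genotype at 25°C, and 64.6% were higher and 3.89% lower by temperature in *mut-16*.

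**Figure D3:**
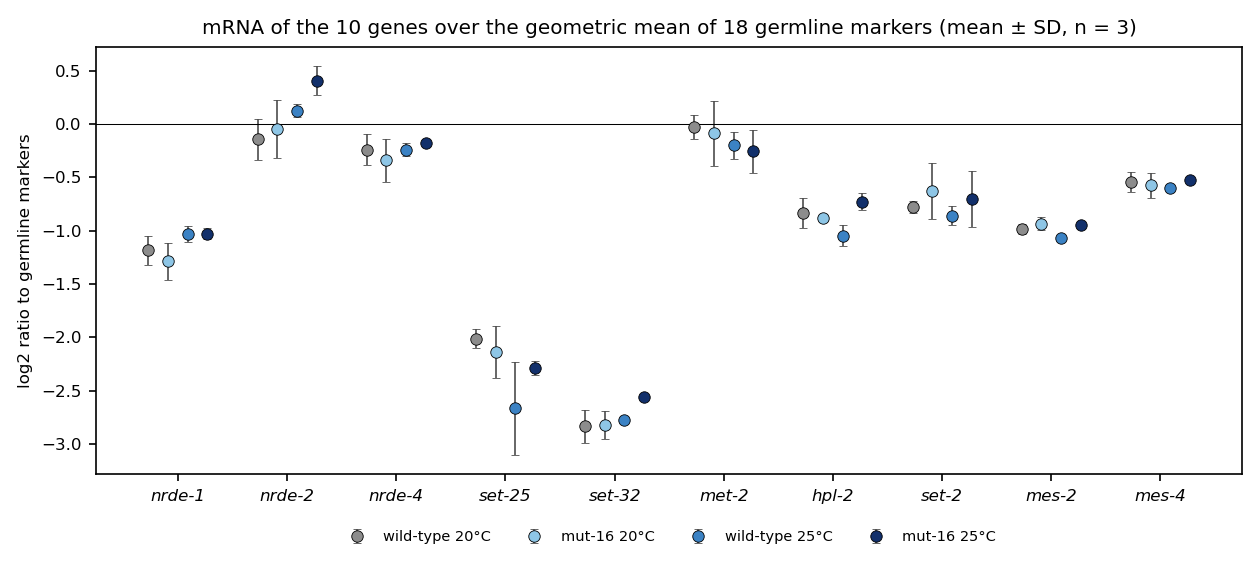
log2 ratio of the mRNA of each gene to the geometric mean of 18 germline markers in the same library (vertical axis), as mean ± SD of 3 libraries in the 4 groups. The dark points of *mut-16* at 25°C lie within 0.375 of the wild-type points at 25°C for all 10 genes, and below them for *met-2*.

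Partners of the 10 genes were read from 4 lists of 44 genes in all, of which 43 were tested in mRNA-seq. Besides members of the same complexes, the lists hold other genes of the same pathways, such as histone demethylases and further methyltransferases. By edgeR's quasi-likelihood test, 27 of the 43 were lower and 2 higher in *mut-16* at 25°C than at 20°C (median log2 fold change -0.33), and 34 were lower and 2 higher than in wild-type at 25°C (median -0.36). Of all genes, 32.3% were lower and 40.2% higher by temperature in *mut-16*, and 32.6% and 41.1% by genotype at 25°C. At 20°C, 3 partners were higher and 3 lower in *mut-16*, where 25.9% of all genes were higher and 11.2% lower. In wild-type, 3 partners were higher and 3 lower at 25°C, where 22.6% of all genes were higher and 9.78% lower. The interaction was lower for 19 partners and higher for 0, where 21.4% of all genes were lower and 9.7% higher. These counts depended on the scaling, a check added after seeing the data. With library totals, 7 were lower and 7 higher by temperature in *mut-16*, 16 lower and 5 higher by genotype at 25°C, and 1 lower and 3 higher in the interaction, where 12.4%, 18.3% and 6.07% of all genes were lower and 52.4%, 49.5% and 21.6% higher. Scaled by the germline markers, the direction turned, as it did over all genes, with 3 lower and 18 higher by temperature in *mut-16*, 1 lower and 22 higher by genotype at 25°C, and 1 lower and 12 higher in the interaction (edgeR). Of all genes, 64.6%, 73.6% and 44.1% were then higher. *hrde-1*, the germline nuclear Argonaute that recruits the NRDE factors, was lower, with -0.96 (SE 0.10, edgeR adjusted p = 1.55e-06) between the temperatures in *mut-16* and -0.67 (SE 0.10, adjusted p = 3.42e-05) between the genotypes at 25°C, and higher by genotype at 20°C (0.30, SE 0.10, edgeR adjusted p = 0.027). Scaled by library totals, the 20°C call was lost (0.21, edgeR adjusted p = 0.0777), and scaled by the germline markers so was the genotype call at 25°C (-0.05, adjusted p = 0.623). Its interaction was -0.97 (SE 0.14, edgeR adjusted p = 0.000367). *morc-1*, a GHKL ATPase that acts downstream of nuclear RNAi in the germline, changed by -0.88 (SE 0.12, edgeR adjusted p = 1.23e-05) by genotype at 25°C, by -0.77 (SE 0.12, adjusted p = 4.62e-05) by temperature in *mut-16* and by -0.61 (SE 0.17, adjusted p = 0.0141) in the interaction. The first and second of these calls held under library totals (-0.67 and -0.46) and germline marker scaling (-0.26 and -0.25, edgeR adjusted p = 0.0176 and 0.0251). *nrde-3*, the somatic nuclear Argonaute, was lower at 25°C in both genotypes, with -0.42 in each (edgeR adjusted p = 0.00891 for wild-type and 0.0038 for the mutant), the second lost with library totals (-0.11, edgeR adjusted p = 0.429).

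Several partners in the complexes around the enzymes were lower too with TMM factors. For MET-2, the cofactors *lin-65* (-0.43) and *arle-14* (-0.29) were lower at 25°C in *mut-16* than in wild-type, as was *lin-61* (-0.48), which encodes a reader of methylated lysine 9 (edgeR adjusted p = 0.00716, 0.0121 and 0.000904). For SET-2, the shared subunits *wdr-5.1* (-0.43), *ash-2* (-0.34), *rbbp-5* (-0.48), *dpy-30* (-0.24) and *cfp-1* (-0.33) were all lower, with edgeR adjusted p between 8.66e-05 and 0.0196. *spr-5*, a lysine 4 demethylase with the opposite activity, was lower as well (-0.44, edgeR adjusted p = 0.00286). For MES-2, the complex partners *mes-6* (-0.64, edgeR adjusted p = 2.09e-05) and *mes-3* (-0.28, adjusted p = 0.0294) were lower. *mrg-1*, which binds methylated lysine 36, and *met-1*, the other lysine 36 methyltransferase, were lower, with -0.39 and -0.55 (edgeR adjusted p = 0.000759 and 0.0286). *set-6*, a predicted lysine 9 methyltransferase, went the other way, with 0.55 (SE 0.11, edgeR adjusted p = 0.000515). In the lysine 4 list, *hcf-1* (-0.52) and *swd-2.2* (-0.51) had the smallest p (edgeR adjusted p = 3.38e-05 and 1.63e-05). With library totals, *lin-61*, *wdr-5.1*, *rbbp-5*, *mes-6*, *hcf-1* and *swd-2.2* stayed lower (-0.43 to -0.23), and *lin-65*, *arle-14*, *ash-2*, *dpy-30*, *cfp-1*, *spr-5*, *mes-3*, *mrg-1* and *met-1* did not pass. With germline marker scaling, *mes-6* was at -0.02 and the signs of the other genes named as lower turned, while *set-6* was higher under both (0.75 and 1.165).

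Other listed genes stood out in single comparisons. In *mut-16*, *jmjd-2* (-0.91), a histone demethylase gene, and *lin-13* (-0.85), a partner of HPL-2, were lower at 25°C (edgeR adjusted p = 0.000658 and 0.000793), as were *hcf-1* (-0.62) and *swd-2.2* (-0.46) of the lysine 4 list (8.21e-06 and 4.38e-05) and *mes-6* (-0.44) and *mrg-1* (-0.39) of the lysine 27 and 36 list (0.000562 and 0.000838). With library totals *jmjd-2*, *lin-13* and *hcf-1* stayed lower, and with germline marker scaling none of these 6 passed. In wild-type, *cec-4* (0.65), which anchors lysine 9-methylated chromatin at the nuclear periphery, *ash-2* (0.36) and *jmjd-3.2* (1.27), an H3K27 demethylase family member, were higher at 25°C, and *set-6* (-0.41) and *swd-2.2* (-0.21) were lower (edgeR adjusted p = 6.45e-05, 0.012, 0.0197, 0.0122 and 0.0294). At 20°C, *enri-2* (0.40) was higher and *swd-2.1* (-0.25) and *swd-2.2* (-0.26) were lower in *mut-16* (edgeR adjusted p = 0.0418, 0.0178 and 0.00878). The call of *enri-2* was lost with DESeq2 (adjusted p = 0.132) and, with edgeR, under library totals (0.131) and germline marker scaling (0.0578). In the interaction, *jmjd-1.2* (-0.66), *dpy-30* (-0.48), *mrg-1* (-0.46), *mes-6* (-0.46), *lin-13* (-0.90) and *hcf-1* (-0.575) also passed (edgeR adjusted p = 0.00498, 0.0044, 0.0106, 0.0158, 0.0159 and 0.00201), and none of them did with library totals.

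Small RNA reads on the same genes gave another pattern. In *mut-16*, 9 of the 10 genes had more small RNAs than in wild-type at 20°C, where 33.6% of the 16025 genes tested had more, and the same 9 had more at 25°C, where 31.3% of all genes had more (edgeR's quasi-likelihood test, adjusted p under 0.05). The exception was *nrde-1*. For each of the 9, every mutant library was above every wild-type library of its temperature, as was the case for 35.1% of all genes at 20°C and 32.0% at 25°C. The median log2 fold change of the 10 genes was 0.67 at 20°C and 0.52 at 25°C, whereas that of all genes was -0.45 and -0.58. These levels are relative to the scaled library size, and 46.8% of all genes had fewer small RNAs at 20°C and 47.1% at 25°C. With at least 10 counts in every library, the medians of the 10 genes were 0.22 and 0.205, and those of all genes -0.01 and 0.03. Whether the amount of these small RNAs in an animal differed was not tested. The counts carry neither length nor strand of the reads, so 22G-RNAs were not separated from other small RNAs.

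*mes-2* had the largest difference. Its small RNA levels were 142.2, 142.7 and 138 normalised CPM in wild-type at 20°C, 148, 144 and 146 in wild-type at 25°C, 357, 335 and 353 for the mutant at 20°C and 323.5, 345 and 356 at 25°C. The genotypes were far apart, and neither temperature comparison passed. The log2 fold change between the genotypes was 1.30 (SE 0.05, edgeR adjusted p = 1.19e-11) at 20°C and 1.22 (SE 0.05, edgeR adjusted p = 2.75e-11) at 25°C. *set-32* had 186, 184 and 181 in wild-type at 20°C and 385, 334 and 379.0 in *mut-16* at 20°C, a log2 fold change of 0.99 (SE 0.06, edgeR adjusted p = 1.86e-09), and 0.97 (SE 0.06, edgeR adjusted p = 2.87e-09) at 25°C. *set-25* had 221, 232.4 and 232.5 in wild-type and 446, 401 and 436 in *mut-16* at 20°C (0.90, SE 0.07, edgeR adjusted p = 1.64e-08), but 254, 248 and 210 against 333, 327 and 343.5 at 25°C (0.49, SE 0.07, edgeR adjusted p = 1.5e-05). The mutant had more at both temperatures, with the smaller gap at 25°C. For *nrde-2*, *nrde-4*, *met-2*, *set-2*, *mes-4* and *hpl-2*, the log2 fold changes between the genotypes were 0.46 to 0.75 at 20°C and 0.49 to 0.66 at 25°C. Per kilobase of exon, *nrde-2* had the most small RNAs of the 10 genes, with 260 ± 10.9 RPM per kilobase in wild-type at 20°C, where *met-2* followed with 129.7 ± 5.56 (SD, n = 3). With at least 10 counts in every library as the filter, which left 8195 genes, the log2 fold changes of the 9 genes other than *nrde-1* were all smaller. They then ran from 0.01 to 0.855 at 20°C and from 0.17 to 0.905 at 25°C, and the all-gene median went from -0.45 to -0.01 and from -0.58 to 0.03. The calls of *nrde-2* (0.01, edgeR adjusted p = 0.907) and *hpl-2* (0.19, adjusted p = 0.0823) were lost at 20°C, and that of *hpl-2* (0.17, adjusted p = 0.112) at 25°C.

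*nrde-1* stood apart. Its small RNA levels were 122.6, 109.8 and 110.2 in wild-type at 20°C, 110.7, 108.5 and 113.7 in wild-type at 25°C, 116.5, 98.45 and 109.5 for the mutant at 20°C and 111.1, 118.8 and 116.7 at 25°C. The genotypes overlapped at both temperatures. The log2 fold change between the genotypes was -0.08 (95% interval -0.23 to 0.07) at 20°C and 0.06 (-0.09 to 0.21) at 25°C, both within intervals that leave out the smallest increase among the other 9 genes (0.46 and 0.49). These 2 values moved with the settings. At 20°C *nrde-1* was called lower with library totals (-0.18, edgeR adjusted p = 0.0191), with only the groups compared (-0.16, adjusted p = 0.0211), with at least 10 counts in every library (-0.53, adjusted p = 2.05e-06) and without wild-type 25°C replicate 3 (-0.12, adjusted p = 0.0485). At 25°C it was called higher with DESeq2 (0.30, adjusted p = 0.000134), and also with edgeR without wild-type 20°C replicate 1, 2 or 3 (adjusted p = 0.0165, 0.0262 and 0.0252) or wild-type 25°C replicate 1 or 3 (0.0149 and 0.0331), but lower with at least 10 counts in every library (-0.26, edgeR adjusted p = 0.00102).

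**Figure D4:**
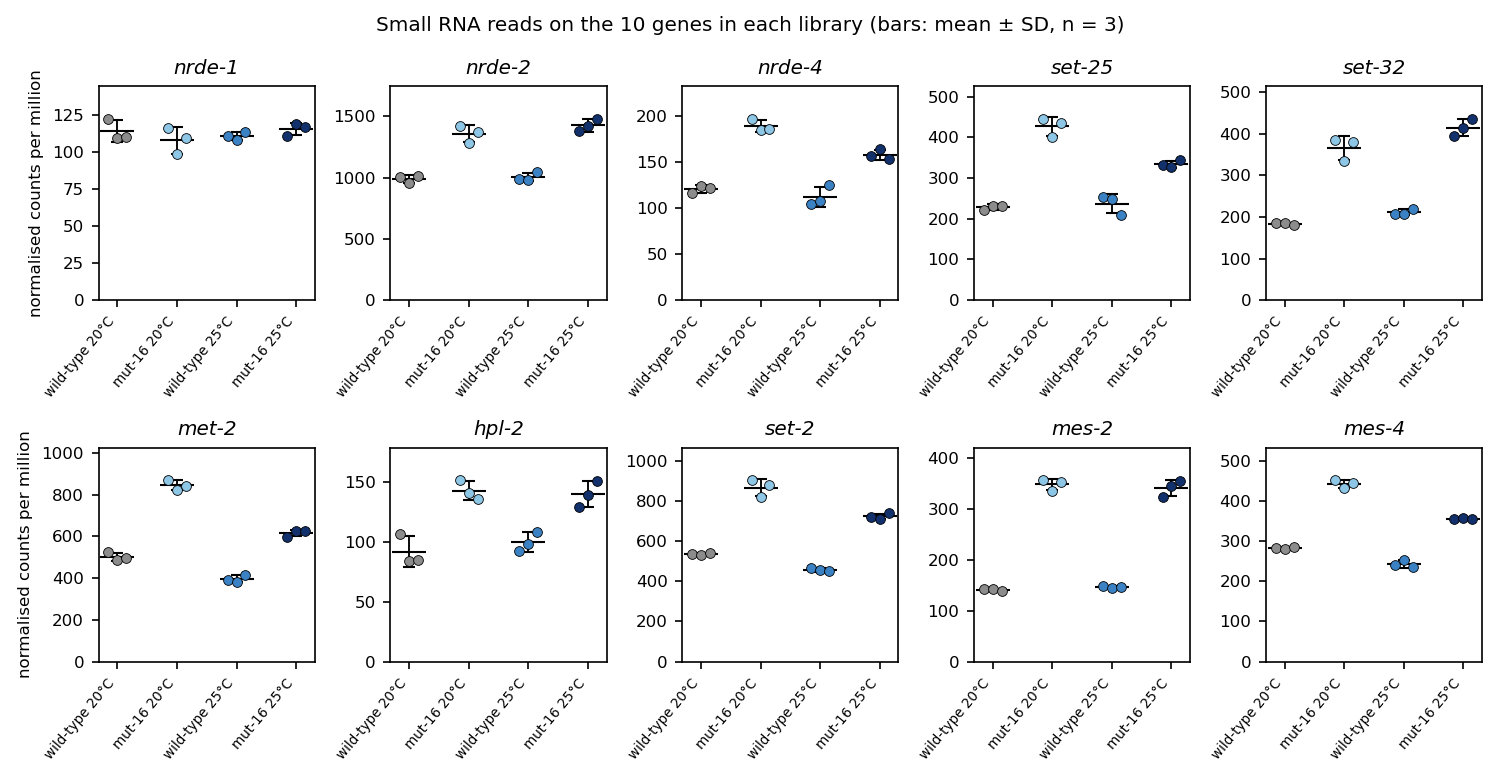
Small RNA reads on the 10 genes in normalised CPM (vertical axes, each from 0) in the 12 small RNA-seq libraries, with mean and SD of 3 as bars. For *mes-2*, the *mut-16* libraries lie at 323.5 to 357 and the wild-type libraries at 138 to 148, while for *nrde-1* the genotypes overlap at both temperatures.

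Fewer of the 10 genes were called in small RNAs between the temperatures than between the genotypes. In wild-type, *met-2* (-0.34, SE 0.06), *set-2* (-0.23, SE 0.05) and *mes-4* (-0.22, SE 0.05) had fewer small RNAs at 25°C, 3 of 10 where 17.0% of all genes had fewer (edgeR adjusted p = 0.00021, 0.00318 and 0.00333). Only *set-32* had more, 1 of 10 where 20.2% of all genes had more, with a log2 fold change of 0.20 (SE 0.06, edgeR adjusted p = 0.0237). This call was lost with library totals (adjusted p = 0.193) and without any 1 of 5 of the 6 wild-type libraries (edgeR adjusted p = 0.106 to 0.152), wild-type 25°C replicate 3 being the exception. In *mut-16*, 5 of 10 had fewer at 25°C where 17.3% of all genes did, namely *met-2* (-0.46), *set-25* (-0.36), *mes-4* (-0.32), *nrde-4* (-0.26) and *set-2* (-0.26), with edgeR adjusted p from 3.14e-05 to 0.00885. *set-32* had more (0.18, SE 0.06, edgeR adjusted p = 0.049), 1 of 10 where 8.29% of all genes had more, and the call was lost without any 1 of the 6 *mut-16* libraries (edgeR adjusted p = 0.0616 to 0.266). *nrde-1* and *nrde-2* were called higher without wild-type 25°C replicate 1 or 3 (edgeR adjusted p = 0.00336 to 0.0335), and *nrde-1* without wild-type 20°C replicate 1 (0.0349). Leaving out wild-type 20°C replicate 2 or 3 or wild-type 25°C replicate 2 reduced the 5 genes with fewer to 2, *met-2* and *mes-4*, and leaving out wild-type 20°C replicate 1 to 3, with edgeR adjusted p of the lost calls between 0.0531 and 0.0852. *met-2* was the gene with the clearest difference in both genotypes, with 525, 487 and 499 normalised CPM at 20°C and 392, 383 and 415 at 25°C in wild-type, and 870, 822 and 844 and 598, 624 and 627 in *mut-16*, without overlap.

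The interaction in small RNAs passed for 1 of the 10 genes, *set-25* (-0.41, SE 0.10, edgeR adjusted p = 0.0109), where 12.6% of all genes were lower. It was lost with DESeq2 (-0.36, adjusted p = 0.0595) and without wild-type 20°C replicate 1, 2 or 3 or wild-type 25°C replicate 1 or 2 (edgeR adjusted p = 0.306, 0.23, 0.232, 0.307 and 0.313). *nrde-1* passed in the other direction without wild-type 20°C replicate 3 or wild-type 25°C replicate 1 or 3 (edgeR adjusted p = 0.0496, 0.0314 and 0.0263), as did *nrde-2* without wild-type 25°C replicate 3 (0.0278). In small RNA-seq, *mut-16* had more reads on 27 and fewer on 12 of the 44 partner genes at 20°C, and more on 27 and fewer on 13 at 25°C. Of all genes, 33.6% had more and 46.8% fewer at 20°C, and 31.3% had more and 47.1% fewer at 25°C. Germline markers had more on 17 of 18 at 20°C and 16 of 18 at 25°C, with 0 lower (edgeR's quasi-likelihood test). Among the partners with more were *mtr-4* (1.005 at 20°C and 0.94 at 25°C), *rsd-6* (0.66 and 0.78) and, at single temperatures, *hcf-1* (0.86) and *set-16* (0.78) at 20°C and *cfp-1* (0.87) and *wdr-5.1* (0.93) at 25°C, with edgeR adjusted p of at most 2.35e-07. Among those with fewer were the H3K27 demethylase genes *jmjd-3.1* (-7.08 at 20°C, edgeR adjusted p = 2.61e-16) and *jmjd-3.2* (-6.32, adjusted p = 2.5e-14), the HP1 gene *hpl-1* (-3.22, adjusted p = 4.28e-11) and, at 25°C, *lin-15B* (-2.16, adjusted p = 6.82e-12). *hpl-2* and *hpl-1*, both HP1 genes, thus changed in opposite directions. At 25°C *jmjd-3.1* (-5.70), *jmjd-3.2* (-3.64) and *hpl-1* (-2.50) also had fewer (edgeR adjusted p = 1.96e-15, 3.23e-11 and 1.92e-09), and *jmjd-2* had more at 20°C (edgeR adjusted p = 3.85e-11).

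By temperature, 7 of the 44 partners had more and 13 fewer small RNAs in wild-type at 25°C, and 3 had more and 10 fewer in *mut-16*. Of all genes, 20.2% had more and 17.0% fewer in wild-type, and 8.29% had more and 17.3% fewer in the mutant. In wild-type, *jmjd-3.2* (-2.26) and *jmjd-3.1* (-1.74) changed most among the partners named here (edgeR adjusted p = 3.72e-09 and 1.13e-09), and *arle-14* (-0.59), *cfp-1* (-0.50) and *hrde-2* (-0.36) had fewer and *lin-15B* (0.88), *hcf-1* (0.46) and *rsd-2* (0.31) more, with edgeR adjusted p of at most 0.00083. In *mut-16*, *set-16* (-0.80), *jmjd-2* (-0.51), *rbbp-5* (-0.45), *mrg-1* (-0.38), *mes-6* (-0.32), *jmjd-1.2* (-0.32) and *mtr-4* (-0.18) had fewer and *rsd-2* (0.22) more, with edgeR adjusted p of at most 0.0411. The call of *mtr-4* was lost with DESeq2 (adjusted p = 0.132) and that of *rsd-2* with library totals (edgeR adjusted p = 0.0503). The interaction passed for 7 partners above and 6 below 0, among them *jmjd-3.2* (2.67), *jmjd-3.1* (1.39), *hrde-2* (0.27), *lin-15B* (-1.04), *jmjd-2* (-0.52), *set-16* (-0.51) and *hcf-1* (-0.32), with edgeR adjusted p of at most 0.0339.

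Set beside each other, the assays did not move together for these genes with TMM factors. At 20°C, 9 of the 10 had more small RNAs in *mut-16* and 0 of the 10 had a called mRNA change. At 25°C, *nrde-4*, *set-32*, *met-2*, *set-2*, *mes-2*, *mes-4* and *hpl-2* had more small RNAs and less mRNA than in wild-type, *nrde-2* and *set-25* had more small RNAs without a call in mRNA, and *nrde-1* had less mRNA without a call in small RNAs. With library totals, the mRNA calls of *set-32*, *set-2* and *hpl-2* were lost (edgeR adjusted p = 0.115, 0.144 and 0.386). Scaled by the germline markers, 0 of the 10 were lower in mRNA, and *hpl-2* and *nrde-2* were called higher. With at least 10 counts in every library, the small RNA call of *hpl-2* was lost at both temperatures and that of *nrde-2* at 20°C. The small RNA RPM for each mRNA RPM ranged from 0.891 for *nrde-4* to 8.24 for *set-32* in wild-type at 20°C, and for the same genes from 1.504 to 16.4 in *mut-16*. For *nrde-1* the ratio was 1.63 and 1.66. These are ratios of group means, since the sources used here do not say whether libraries of the 2 assays share RNA.

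**Figure D5:**
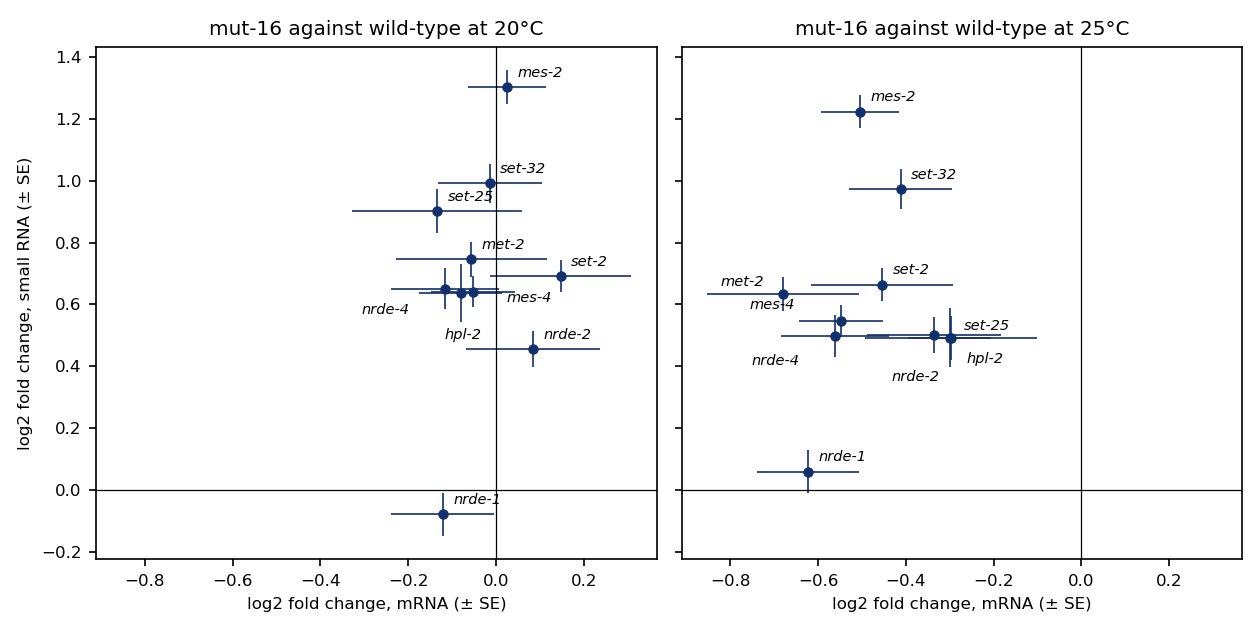
log2 fold change of mRNA (horizontal axis) and of small RNA (vertical axis), each ± SE, comparing *mut-16* with wild-type at 20°C (left) and 25°C (right). The 9 genes other than *nrde-1* lie between 0.46 and 1.30 on the vertical axis at 20°C, around 0 on the horizontal axis, and at 25°C all 10 lie to the left of 0, from -0.68 to -0.30.

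Across the 12 mRNA-seq libraries, the 10 genes resembled each other in their log2 levels. Pearson's r was 0.806 in the median over the 45 pairs, with a range from -0.028 to 0.96, as a description of libraries that share the groups above. *nrde-4* had the highest median r with the other 9 (0.887) and *nrde-2* the lowest (0.568). The tested gene most like each was *rabx-5* for *nrde-1* (r = 0.981), *klp-12* for *nrde-2* (0.977), *duo-3* for *nrde-4* (0.993), *tsen-54* for *set-25* (0.934), *fic-1* for *set-32* (0.986), *knl-1* for *met-2* (0.988), *met-1* for *set-2* (0.983), *czw-1* for *mes-2* (0.99), *alfa-1* for *mes-4* (0.989) and Y37E11AL.3 for *hpl-2* (0.978). Such patterns were common for most of the 10 and rare for *set-25*. *mes-2* had 1111 other genes at an r of at least 0.9, *set-25* had 7 and *nrde-2* had 32.

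The genome around the genes was read in the WBcel235 assembly, which WS258 uses. *nrde-1* lies at chrIII:3713463-3718750 (plus strand), *met-2* at chrIII:8375300-8380848 (plus) and *hpl-2* at chrIII:10752195-10755530 (minus), and each starts within 200 bases downstream of a gene on its own strand, as 9.5% of the 19970 protein-coding genes do. In *C. elegans*, such close neighbours are often transcribed together and separated by trans-splicing, and whether that holds here was not tested. The intergenic stretches (RefSeq, WBcel235, in the direction of transcription) are shown for these 3 genes, which alone among the 10 have a gap within 200 bases. Capitals mark TTCAG, the end of a splice acceptor, found in 32.8% of the 1889 stretches of this kind (given strand only).
alkb-8 to nrde-1, chrIII:3713349-3713462, plus strand: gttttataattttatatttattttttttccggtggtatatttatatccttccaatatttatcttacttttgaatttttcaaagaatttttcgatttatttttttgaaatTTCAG
lmbr-1 to met-2, chrIII:8375173-8375299, plus strand: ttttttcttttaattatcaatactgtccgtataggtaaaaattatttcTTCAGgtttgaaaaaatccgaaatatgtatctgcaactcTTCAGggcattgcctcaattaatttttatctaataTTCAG
rnf-113 to hpl-2, chrIII:10755531-10755623, minus strand: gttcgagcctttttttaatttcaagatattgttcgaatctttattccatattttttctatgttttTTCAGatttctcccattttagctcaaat
In the first and second stretch TTCAG ends right at the annotated start of the downstream gene, and in the third it lies further upstream.

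In mRNA, the upstream neighbours went the same way as *nrde-1*, *met-2* and *hpl-2* by genotype at 25°C, where 32.6% of all genes were lower. In *mut-16* against wild-type at 25°C, *alkb-8* changed by -0.76 (SE 0.13, edgeR adjusted p = 0.000102) beside the -0.62 of *nrde-1*, *lmbr-1* by -0.40 (SE 0.09, edgeR adjusted p = 0.00102) beside the -0.68 of *met-2*, and *rnf-113* by -0.55 (SE 0.07, edgeR adjusted p = 8.8e-06) beside the -0.30 of *hpl-2*. None of the 3 neighbours was called at 20°C between the genotypes (edgeR adjusted p = 0.785, 0.623 and 0.256). In other comparisons the calls within some pairs differed, and the genes of a pair were not tested against each other. By temperature in wild-type, *rnf-113* was lower (-0.31, edgeR adjusted p = 0.00367). *hpl-2* was not called (-0.14), and its 95% interval (-0.35 to 0.06) held the value of *rnf-113*. The interaction passed for *lmbr-1* (-0.47, edgeR adjusted p = 0.0139) and *rnf-113* (-0.44, adjusted p = 0.00534). It was not called for *met-2* (-0.62, SE 0.24, edgeR adjusted p = 0.0673), a larger estimate than that of *lmbr-1*, or for *hpl-2* (-0.22, SE 0.13, adjusted p = 0.219). It passed for both *alkb-8* and *nrde-1*. By temperature in *mut-16*, all 3 pairs were lower. In small RNAs, *lmbr-1* (0.89 at 20°C) and *rnf-113* (1.39) had more in *mut-16*, as *met-2* and *hpl-2* did, and *alkb-8* also had more (0.47, SE 0.05, edgeR adjusted p = 8.58e-07) while *nrde-1*, 114 bases downstream, did not pass.

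*mes-2* (chrII:14383973-14388454, plus strand), *mes-4* (chrV:13433050-13437545, minus strand) and *set-2* hold an E2F-type motif in the 250 bases before their annotated start. The motif was taken as TTCCCGC in one form, TTCGCGC in another, TTGCCGC in the third and TTGGCGC in the last, on either strand, a set widened after these genes' sequences had been seen. Of all protein-coding genes, 7.9% have a match in that window, a share that cannot be set against the 10 genes for that reason. The upstream stretches of *mes-2* and *mes-4* are shown with the matches in capitals, of which the last 2 in *mes-2* overlap on opposite strands.
mes-2, chrII:14383723-14383972, plus strand: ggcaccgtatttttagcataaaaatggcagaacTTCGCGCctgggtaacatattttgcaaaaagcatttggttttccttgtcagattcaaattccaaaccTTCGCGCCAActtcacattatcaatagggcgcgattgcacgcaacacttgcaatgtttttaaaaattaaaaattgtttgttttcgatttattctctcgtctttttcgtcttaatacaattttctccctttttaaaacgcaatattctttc
mes-4, chrV:13437546-13437795, minus strand: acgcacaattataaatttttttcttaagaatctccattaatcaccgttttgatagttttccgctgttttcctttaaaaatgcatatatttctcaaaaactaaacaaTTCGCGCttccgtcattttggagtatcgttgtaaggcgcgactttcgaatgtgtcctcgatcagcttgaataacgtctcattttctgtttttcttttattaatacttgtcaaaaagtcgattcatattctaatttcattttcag
A palindromic heat shock element, 2 units of GAA in opposite orientation spaced by 2 bases, (GAANNTTC or TTCNNGAA) was in the same window of *nrde-1*, where the window reaches into *alkb-8*, and of *set-25*, 2 of the 10 genes, and of 27.1% of all protein-coding genes. A match is a string of letters and not a measured site.

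Exons of 3 of the 10 genes overlap genes on the opposite strand, *nrde-1* with C14B1.8 over 99 bases (3.7% of its exon length), *nrde-4* with *cima-1* over 91 bases (3.6%) and *set-25* with *unc-64* over 64 bases (2.3%) and with the piRNA gene 21ur-12617 over 21 bases. The mRNA libraries were made with a kit that keeps the strand, but the strand setting of the counting is not given in the sources used here, so reads in these stretches may belong to either gene.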

How the data were processed

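mRNA-seq and small RNA-seq of whole adults were analysed, with 12 libraries in each assay and 24 in all. The authors trimmed reads with Cutadapt and mapped them with Salmon to the WS258 transcriptome, and the deposited values are estimated counts per gene (expected counts, not normalised). Versions and settings are not given in the sources used here. The 46970 entries of each file were summed to 45904 gene names, and 1060 names had more than one entry. The chromatin accessibility samples were not analysed here.

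Counts were rounded and tested with edgeR 4.0.16 (R 4.3.3), using filterByExpr, TMM factors and a robust quasi-likelihood fit of all 12 libraries of an assay with one coefficient per group. p-values were Benjamini-Hochberg adjusted over the 14623 (mRNA) or 16025 (small RNA) genes tested, with a threshold of 0.05. The SE is the log2 fold change divided by the square root of the F statistic. The methods name no test for these data, and counts from Salmon fit a count model. The procedure was also run on simulated counts in which a small share of genes changed, as many up as down. The simulation therefore did not test the choice of scaling.

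The 10 genes and all gene lists were chosen with earlier results of these data known. Named are the 10 genes, *mut-16*, direct complex partners, any other partner among the 2 smallest p-values of its list in a comparison, and for each of the 10 genes the tested gene with the highest Pearson correlation over the mRNA libraries. Upstream neighbours within 200 bases and overlapping genes were named after the positions had been read. Fits with 1 of the 12 libraries left out, DESeq2 1.42.0, library totals, other filters on low counts, the replicate number as a block, the RE mark and fits of only the groups compared were alternatives. Sequence came from RefSeq (WBcel235). Salmon divides reads shared by similar transcripts, so its counts are estimates, and p-values measure the spread between 3 libraries per group.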

Additional observations from a re-analysis of the deposited data

Results flagged for a closer look

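In 4 results, the heat response differed between the genotypes by a direct test of the interaction. In mRNA, the heat response in *mut-16* minus that in wild-type was -0.53 on the log2 scale for *mes-2*, -0.50 for *mes-4* and -0.50 for *nrde-1*. In small RNA, it was -0.41 for *set-25*. The mRNA of *mes-2* and *mes-4* passed in all 12 fits that left out 1 library, that of *nrde-1* in 5 of 12 and the small RNAs of *set-25* in 7 of 12. With library totals as the scaling, none of the 3 mRNA differences passed, and with DESeq2 the small RNA difference of *set-25* did not. Single outlying libraries within groups of 3 were not tested for.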

How the results depend on the processing

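All counts here are of the 10 genes, called at an adjusted p under 0.05. Of 1930 single-gene results recomputed, 1748 kept their side of the threshold, and 78 lost and 84 gained significance. A further 20 changed sign with a call in at least 1 of the fits compared. Sign changes of results called in neither fit are among the 1748. In mRNA, counts of lower genes moved from 8 to 2 by temperature in *mut-16* and from 8 to 5 by genotype at 25°C with library totals, to 5 and 5 where 10 counts were required in each library, and to 0 and 0 with germline markers as the scaling, where 3 and 2 were higher. They went to 9 and 9 with DESeq2, no filter, the RE mark as a covariate, only the groups compared or without the libraries lacking RE, *set-32* being gained by temperature and *nrde-2* by genotype. For the interaction, 3 became 0 with library totals or germline markers (1 higher), 1 with at least 10 counts, 6 with the RE mark as a covariate and 8 without the libraries lacking RE. In wild-type by temperature, 0 lower became 1 with DESeq2, library totals, no filter, at least 10 counts and germline markers, and 0 higher became 1 with only the groups compared. In small RNA, the 1 higher by temperature in wild-type became 0 with totals or no filter, the 3 lower became 1 with no filter, and the 1 higher in *mut-16* became 2 with DESeq2, 0 with totals or no filter, 4 with at least 10 counts and 3 with only the groups compared. By genotype, 0 lower became 1 at 20°C with totals, at least 10 counts or only the groups compared, and 1 at 25°C with at least 10 counts. That filter also took the 9 higher to 7 at 20°C and 8 at 25°C and the 5 lower by temperature in *mut-16* to 4 (*nrde-4*, -0.12, edgeR adjusted p = 0.165), and DESeq2 took the 9 at 25°C to 10 (*nrde-1*). For the interaction, 0 higher became 1 with at least 10 counts and 1 lower became 0 with DESeq2.

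Replicate numbers did not pair the libraries. Deviations of same-numbered mRNA libraries correlated by 0.019 to 0.189 between the *mut-16* groups, and 4 of 12 mRNA and 1 of 12 small RNA libraries correlated best with their own number. With a replicate block, the mRNA count in wild-type by temperature went from 0 to 1 lower, the mRNA interaction from 3 to 5 lower, the mRNA count by genotype at 25°C from 8 to 9 lower (*nrde-2*, -0.34, edgeR adjusted p = 0.0259) and the small RNA count in *mut-16* by temperature from 1 to 0 higher.

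Leaving out 1 library gave, in mRNA, 0 to 2 higher and 0 to 1 lower by temperature in wild-type, 6 to 9 lower in *mut-16*, 7 to 9 lower by genotype at 25°C and 2 to 9 lower for the interaction. In small RNA it gave 0 to 1 higher and 3 to 4 lower in wild-type, 0 to 3 higher and 2 to 5 lower in *mut-16*, 9 higher and 0 to 1 lower by genotype at 20°C, 9 to 10 higher at 25°C, and 0 to 2 higher and 0 to 1 lower for the interaction.

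The sign changes given next are those of results called in at least 1 of the fits compared, and results called in neither are left out. Signs changed for *nrde-1* by temperature in *mut-16* with totals (log2 fold change 0.040). With germline markers as the scaling they changed by temperature in *mut-16* for *nrde-1* (0.25), *nrde-2* (0.44), *nrde-4* (0.15), *set-32* (0.26), *mes-4* (0.047) and *hpl-2* (0.16), by genotype at 25°C for *nrde-2* (0.29), *nrde-4* (0.061), *set-32* (0.21), *set-2* (0.17), *mes-2* (0.12), *mes-4* (0.074) and *hpl-2* (0.32), and in the interaction for *nrde-1* (0.10), *mes-2* (0.068), *mes-4* (0.11) and *hpl-2* (0.37). In small RNA with at least 10 counts, *mes-2* by temperature in *mut-16* (0.11) and *nrde-1* by genotype at 25°C (-0.26) changed sign. The cause of these shifts was not tested. The 10 genes held at least 343 counts in every library.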
